A study of Mus musculus with 4 samples.

Results

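Messenger RNA of 10 integrin subunit genes was followed in mouse bone marrow-derived macrophages on 4 one-colour Agilent arrays. The genes are Itgal, Itgam, Itgax and Itgb2 of the leukocyte-specific family, Itga4, Itga5 and Itgb1 of the fibronectin and VCAM-1 receptors, and Itgav, Itgb3 and Itgb5 of the vitronectin receptors. They were taken by name: any probe whose gene symbol in the authors' table, or whose transcript in the scanner files, was one of the 10. This gave 26 probes of 56605 and 10 genes of the 25106 named ones, and every probe was well above background on all 4 arrays.

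The 4 groups were Batf2-/- cells with R848, Batf2-/- cells untreated, wild-type cells with R848 and wild-type cells untreated, with 1 array in each. All came from male C57BL/6J mice. Marrow from femurs was grown with macrophage colony-stimulating factor at 3 ng/ml and the macrophages were harvested on day 5. R848 (resiquimod), a small molecule that activates TLR7 in mouse cells, was given at 100 ng/ml for 8 h, and untreated cells were taken at 0 h. The untreated cells therefore differ from the treated ones in time as well as in R848, and the labels give neither the number of mice per array nor any pooling. Batf2 is a transcription factor of the AP-1 family. Below, knockout means Batf2-/-.

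With 1 array per group no difference could be checked against replicates and none was tested, and precision is limited by having so few arrays. The targeted gene, read by 1 probe, had a signal of 10.8 in knockout cells with R848 (not well above background) and 26.7 in untreated knockout cells, against 94.8 in wild-type cells with R848 and 34.1 in untreated wild-type cells. Whether that probe lies within the deleted stretch is not stated in the labels or headers. All 10 macrophage markers examined, among them Csf1r and Cd68, were well above background on every array. The 5 response checks (Il6, Il12b, Tnf, Il1b and Cxcl10) were all at least 2-fold higher with R848 in both genotypes. In bulk RNA of this kind, fewer cells of a type and less RNA per cell cannot be told apart.

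Integrins are surface receptors made of 1 alpha and 1 beta chain, and a chain reaches the surface only as part of such a pair. They join a cell to the extracellular matrix or to other cells, and they bind firmly once signals inside the cell, acting through talin and kindlin on the beta tail, have switched them to an active shape. Itgb2 (CD18) pairs with Itgal (CD11a) as LFA-1, which binds ICAM-1, with Itgam (CD11b) as Mac-1, a receptor for complement fragment iC3b and fibrinogen, and with Itgax (CD11c), which is a standard marker of dendritic cells and of many tissue macrophages. Itgb1 pairs with Itga4 as VLA-4, a receptor for VCAM-1 and fibronectin, and with Itga5 as the fibronectin receptor. Itgav pairs with Itgb3 and Itgb5, among others, and these receptors bind vitronectin and take part in the uptake of apoptotic cells.

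The promoters of 4 members are given because these genes behaved most differently from each other below: Itgax was set apart by genotype, its chromosomal neighbour Itgam was flat, Itga5 had the largest increase with R848 and Itgb5 the largest decrease. Each sequence is the 250 bases before the annotated start, 5′ to 3′ on the gene's own strand, from RefSeq (build GRCm38.p6). The positions are chr7:128129300-128129549 on the plus strand for Itgax, chr7:128062390-128062639 on the plus strand for Itgam, chr15:103366792-103367041 on the minus strand for Itga5 and chr16:33829415-33829664 on the plus strand for Itgb5. Capitals mark matches, on either strand, to 5 motifs. The AP-1 site was searched as TGANTCA, where N is any base. The core of sites of PU.1, a myeloid factor of the ETS family, was searched as GAGGAA. The GC box, bound by factors such as Sp1, was searched as GGGCGG. The other motifs were the interferon-stimulated response element and the kappaB site.
Itgax: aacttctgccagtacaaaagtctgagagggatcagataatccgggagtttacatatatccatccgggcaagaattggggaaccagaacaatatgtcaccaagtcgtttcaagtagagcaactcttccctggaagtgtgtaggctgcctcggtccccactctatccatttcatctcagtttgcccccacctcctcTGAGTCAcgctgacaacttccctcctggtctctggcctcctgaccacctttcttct
Itgam: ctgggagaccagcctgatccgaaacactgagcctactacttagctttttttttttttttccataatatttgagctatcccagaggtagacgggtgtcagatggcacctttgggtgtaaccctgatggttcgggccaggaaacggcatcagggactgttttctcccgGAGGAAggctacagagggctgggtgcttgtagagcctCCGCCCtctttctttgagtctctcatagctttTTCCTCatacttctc
Itga5: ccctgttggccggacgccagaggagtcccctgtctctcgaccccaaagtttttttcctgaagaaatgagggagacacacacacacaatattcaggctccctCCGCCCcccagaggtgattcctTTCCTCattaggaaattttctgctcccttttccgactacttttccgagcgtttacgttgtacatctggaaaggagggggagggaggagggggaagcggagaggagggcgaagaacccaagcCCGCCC
Itgb5: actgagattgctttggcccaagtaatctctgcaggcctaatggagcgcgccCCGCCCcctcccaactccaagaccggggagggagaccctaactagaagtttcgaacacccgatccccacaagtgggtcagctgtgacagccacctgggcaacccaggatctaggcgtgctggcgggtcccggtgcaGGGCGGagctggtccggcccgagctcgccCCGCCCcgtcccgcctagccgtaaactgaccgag

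The Itgax window held 1 AP-1 match, TGAGTCA, starting 56 bases before the start, and no match to the other motifs. AP-1 matches were present in 6.75% of the 32851 windows of this length in the promoter table. The Itgam window held 2 GAGGAA matches and 1 GC box. In Itga5 there were 1 GAGGAA match and 2 GC boxes, and in Itgb5 there were 3 GC boxes. Over all windows GAGGAA was found in 23.3% and the GC box in 32.7%, the interferon motif in 2.98% and the kappaB site in 7.25%. None of the 4 windows held either of the last pair. No match overlapped another. RefSeq windows were matched by symbol for 7 of the 10 members; Itgal, Itgb2 and Itgb3 had none in that table. Of the windows not printed, Itga4 held 1 GC box, Itgav 2 GAGGAA matches and Itgb1 1 of each. Among the 7, the AP-1 match was in Itgax alone. A match describes these letters and says nothing of binding.

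Signals below are processed signals of the brightest probe of each gene, in arbitrary units, and they compare arrays for 1 probe, not 1 gene with another. Folds and log2 differences were taken after each array had been scaled to its 75th percentile, so they depart slightly from the ratios of the printed signals. The call threshold was 2-fold in either direction. The only error available is technical: between 10 spots of 1 probe, the log2 difference between 2 arrays had a pooled SD of 0.049 to 0.060 at signals over 1000, 0.090 to 0.11 at signals of 100 to 1000 and 0.19 to 0.30 below 100. Feature Extraction's own error estimate was 10.0% to 15.4% of the signal for the 26 probes. Variation between cultures is not covered by either.

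**Figure D1:**
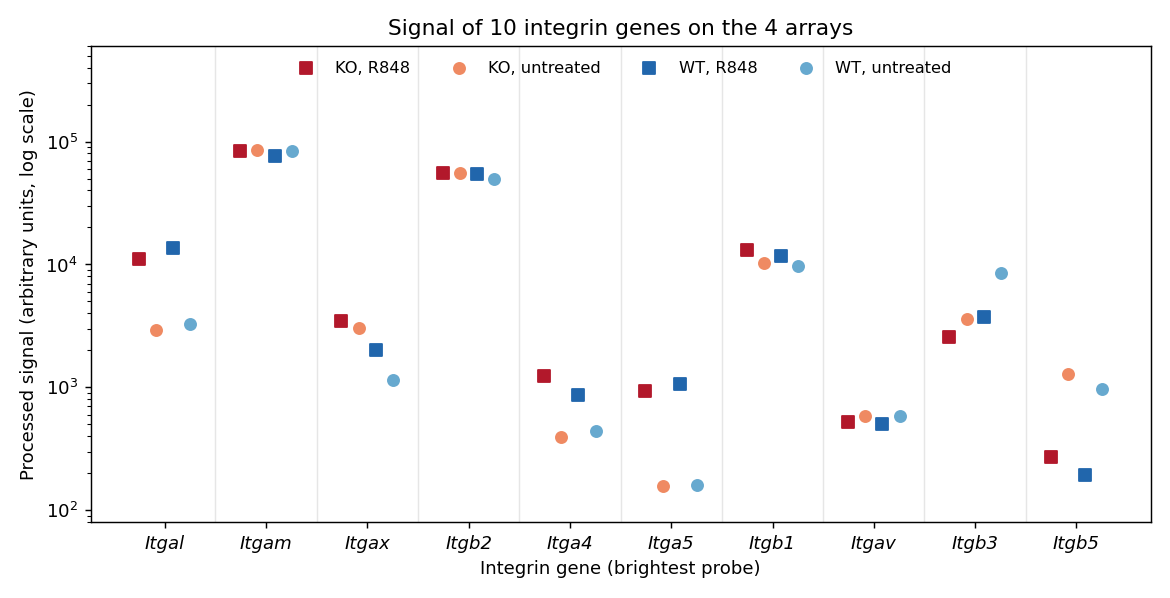
Processed signal (log scale, arbitrary units) of the brightest probe of each integrin gene, 1 point per array, with squares for R848 and circles for untreated cells. Itgal, Itga4 and Itga5 lie higher with R848 in both genotypes, Itgb5 lies lower, Itgax is higher in both knockout arrays than in either wild-type array, and Itgam, Itgb2 and Itgav barely move.

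The response to R848 separated the family. In knockout cells 3 of the 10 genes were at least 2-fold higher with R848, where 6.84% of all 19839 genes measured were, and 1 was lower, where 6.57% were. In wild-type cells the same 3, Itgal, Itga4 and Itga5, were higher (6.19% of 18762 genes) and 2, Itgb5 and Itgb3, were lower (7.01%). Among these 10 genes the 3 higher ones are alpha chains and the lower ones are beta chains, with Itgb3 past 2-fold at 1 of its 2 probes. This does not extend to all beta chains. Itgb1 was modestly higher in both genotypes, and Itgb8, outside the 10, was at least 2-fold higher in both. The median log2 difference of the 10 was 0.16 in knockout and 0.28 in wild-type cells, against -0.06 and -0.03 over all genes.

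Among genes whose brighter array was at or above the 75th percentile, as it was for all 10 members, 8.42% were higher and 5.58% lower in knockout cells, and 7.54% were higher and 6.39% lower in wild-type cells. Median centring in place of the 75th percentile moved the share of called genes that were higher to 63.1% from 51.0% in knockout cells and to 61.0% from 46.9% in wild-type cells, and the median over all genes to 0.09 and 0.13. The calls of Itgal, Itga4, Itga5 and Itgb5 stood under that scaling, whereas Itgb3 in wild-type cells moved to -0.96.

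Itgal, the alpha chain of LFA-1, had a signal of 11066 in knockout cells with R848 and 2927 in untreated knockout cells. In wild-type cells it was 13598 with R848 and 3254 untreated. Both R848 arrays lay far above both untreated arrays, by 3.93-fold in the knockout and 4.38-fold in the wild type. At this probe the genotypes differed by -0.22 with R848 and -0.07 untreated on the log2 scale. Of its 2 dim probes, which read another transcript (AK154115) at signals of 22.4 to 70.3, both were at least 2-fold higher in wild-type cells (1.18 and 1.72), while in knockout cells they stood at 0.24 and 0.55. Untreated, these probes were higher in the knockout than in the wild type, by 0.78 and 0.52, so the sign opposed that of the brightest probe, and the mean over the 3 probes was 0.41. With the mean over the 3 probes the knockout value was 0.92, short of 2-fold, and the wild-type value 1.68.

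Itgam, the alpha chain of Mac-1, was near level on the 4 arrays. Its signal was 83060 and 84731 in knockout cells with R848 and untreated, and 76006 and 83378 in wild-type cells with R848 and untreated. The R848 differences were 0.03 in knockout and -0.07 in wild-type cells, about as large as the spread between spots. No spot on any array was saturated. A second, much dimmer probe (577 and 816 in knockout cells, 956 and 899 in wild-type cells, R848 before untreated) stood at -0.44 and 0.16, so the probes differed in sign but neither reached 2-fold.

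Itgb2, the shared beta chain of this family, was somewhat less level, with a range of 0.31 on the log2 scale against 0.20 for Itgam. Its only probe read 55290 with R848 and 55057 untreated in knockout cells, and 54944 with R848 and 49208 untreated in wild-type cells. The lowest was the untreated wild-type array. The R848 differences were 0.06 and 0.23 in knockout and wild type, and the genotype differences were 0.08 with R848 and 0.25 untreated, all far from 2-fold. The 0.23 and the 0.25 were larger than the spread between spots. At their brightest probes the LFA-1 chains thus moved unequally, with Itgal 3.93-fold and 4.38-fold higher after R848 and Itgb2 within 0.23 on the log2 scale.

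Itga5, the alpha chain of the fibronectin receptor, showed the widest range of the 10, at 2.79 on the log2 scale. Its 1 probe read 932 in knockout cells with R848 and 156 in untreated knockout cells, and 1060 in wild-type cells with R848 and 160 in untreated wild-type cells. The pair of R848 arrays was well separated from the untreated pair, by 6.19-fold in knockout and 6.93-fold in wild-type cells. Of all genes measured, 155 of 18762 in wild-type cells and 238 of 19839 in knockout cells rose as much or more, Itga5 included. Between genotypes it differed by -0.11 with R848 and 0.05 untreated.

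Itga4, the alpha chain of VLA-4, was read by 6 probes. The brightest gave 1237 in knockout cells with R848, 398 in untreated knockout cells, 874 in wild-type cells with R848 and 442 in untreated wild-type cells. Both R848 arrays lay above both untreated ones, by 3.24-fold in the knockout and 2.07-fold in the wild type. All 6 probes were higher with R848 in wild-type cells (0.48 to 1.05), and 5 of 6 were in knockout cells, where the sixth, at a signal of 50.6 with R848, stood at -0.51. Averaged over the 6 probes the values were 0.81 in the knockout and 0.76 in the wild type, both short of 2-fold.

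The knockout's response of Itga4 exceeded the wild type's by 0.64 at the brightest probe, below 2-fold. Over the 6 probes that difference ran from -1.44 to 0.77 and was above 0 in 4 of them, and their mean was 0.05. With R848 the knockout stood 0.58 above the wild type at the brightest probe, and -0.09 as the mean over the 6. Itgb1, the partner chain of Itga4 and Itga5, was modestly higher with R848 at all 3 probes in both genotypes. Its brightest probe read 13127 in knockout cells with R848 and 10258 untreated, and 11622 in wild-type cells with R848 and 9655 untreated. The differences were 0.41 and 0.34 in knockout and wild type. These are several times the spread between spots and well under 2-fold.

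Itgb5 moved the other way. Its 1 probe read 269 in knockout cells with R848 and 1285 in untreated knockout cells, and 192 in wild-type cells with R848 and 975 in untreated wild-type cells. It fell 4.59-fold in knockout and 4.84-fold in wild-type cells. Only 177 of 19839 genes fell as far in the knockout and 130 of 18762 in the wild type, Itgb5 included. The knockout arrays were the higher ones under both treatments, by 0.56 with R848 and 0.48 untreated, differences larger than the spread between spots but under 2-fold.

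Itgav, the alpha chain that Itgb5 and Itgb3 pair with, was level at its brightest probe. The signals were 527 and 590 in knockout cells with R848 and untreated, and 508 and 580 in wild-type cells. The responses were -0.11 and -0.12. Its 3 dimmer probes, at signals of 61.8 to 176, ranged from -0.95 to -0.18 in the knockout and from -0.60 to 0.41 in the wild type. None of the 4 probes reached 2-fold in any of the 4 pairwise comparisons.

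**Figure D2:**
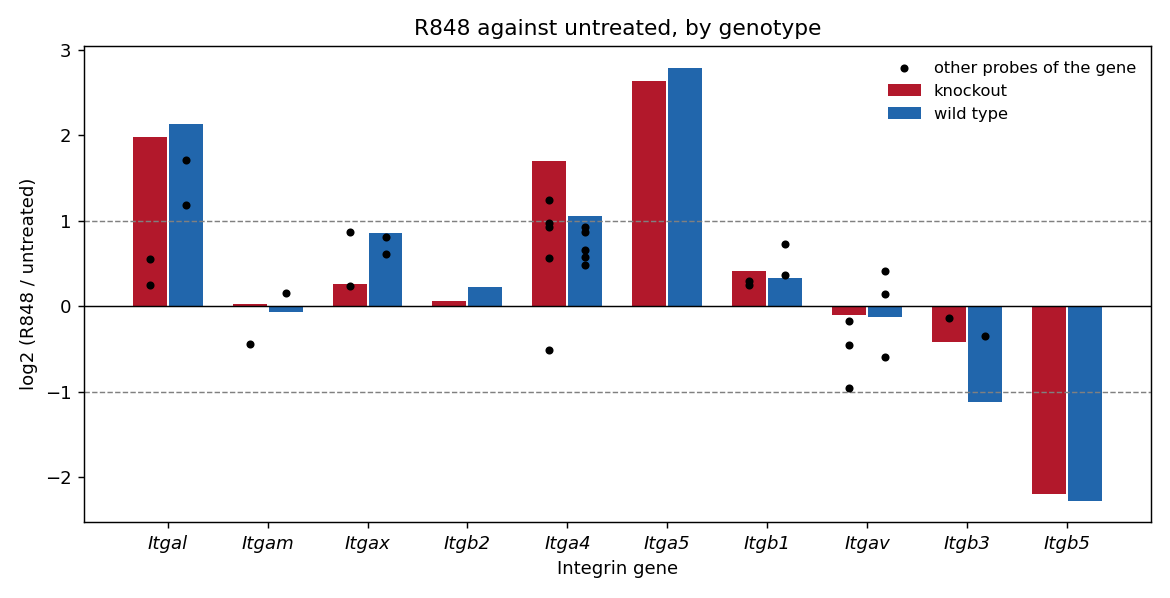
log2 difference of R848 over untreated for each integrin gene in knockout (left bars) and wild-type cells (right bars); bars are the brightest probe, points the gene's other probes and dashed lines 2-fold. Itga5 stands at 2.63 and 2.79, Itgal at 1.98 and 2.13 and Itgb5 at -2.20 and -2.28. The genotypes lie close for each of them at the brightest probe. The dim Itgal probes stand at 0.24 and 0.55 in knockout and at 1.18 and 1.72 in wild-type cells.

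Itgb3, the beta chain that forms a vitronectin receptor with Itgav and the platelet fibrinogen receptor with Itga2b, gave different pictures at its 2 probes. Both are assigned to the same transcript, NM_016780. The brighter one read 2567 in knockout cells with R848, 3574 in untreated knockout cells, 3741 in wild-type cells with R848 and 8499 in untreated wild-type cells. Here the untreated wild-type array stood alone above the other 3. The other probe read 3333 and 3803 in knockout cells with R848 and untreated, and 3191 and 4255 in wild-type cells with R848 and untreated, a range of 0.35 on the log2 scale.

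At the brighter probe R848 lowered Itgb3 2.17-fold in wild-type cells, and untreated knockout cells stood 2.24-fold below untreated wild-type cells. At the other probe these differences were -0.35 and -0.08. With the mean of both they were -0.73 and -0.62, so both calls rest on 1 probe. In knockout cells the R848 differences were -0.42 and -0.13 at the 2 probes. The spots around each of the 26 probes deviated from the other arrays by a median of -0.30 to 0.22 on the log2 scale. The lowest, -0.30, was around the second Itgb3 probe on the untreated wild-type array, where the 2 probes part, and around the brighter probe on that array it was 0.07. The part of this deviation in the disagreement was not tested.

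Markers of megakaryocytes and platelets, which carry Itgb3 at high levels, were examined beside it. Of the 8 listed, 7 were highest on the untreated wild-type array, as the brighter Itgb3 probe was, and 5 were at least 2-fold lower in untreated knockout than in untreated wild-type cells. The share of all genes that were lower there was 3.18%. Gp1ba, part of the platelet von Willebrand factor receptor, read 143, 170, 191 and 622 in the order knockout with R848, knockout untreated, wild type with R848 and wild type untreated. Itga2b, the platelet partner of Itgb3, read 79.3, 90.6, 97.5 and 148 in that order.

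The summed signal of the 8 markers was 20390 in knockout cells with R848 and 8647 untreated, and 16060 in wild-type cells with R848 and 14210 untreated. Most of it came from Pf4, which macrophages also express and which did not follow the others. None of the 8 was below background on any array. The part of these cells in the Itgb3 signal was not tested.

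**Figure D3:**
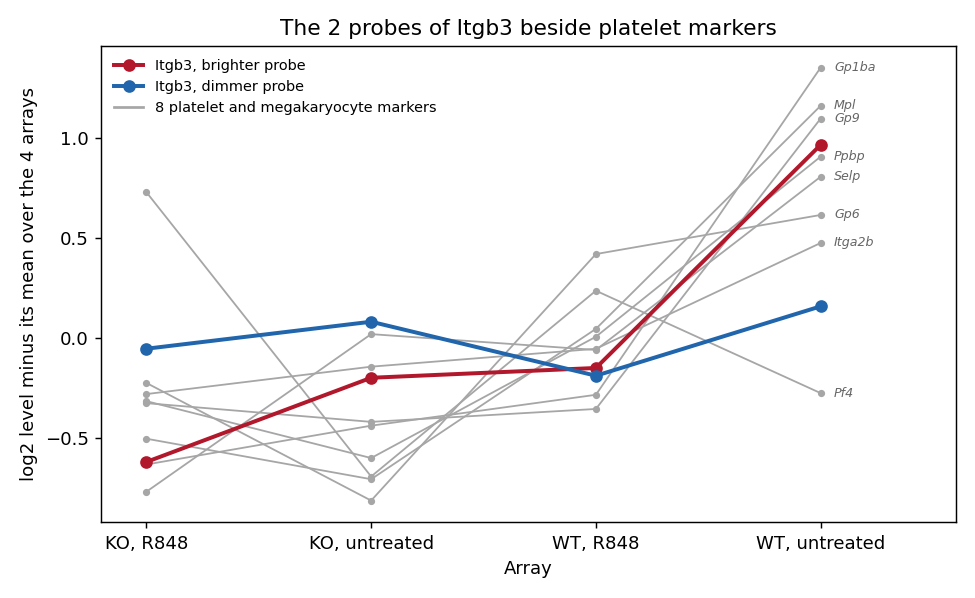
log2 level, centred on each probe's mean over the 4 arrays, of the 2 Itgb3 probes (coloured) and 8 megakaryocyte and platelet markers (grey) on each array. The brighter Itgb3 probe and 7 of the 8 markers are highest on the untreated wild-type array, while the other Itgb3 probe spans only 0.35.

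Between genotypes, 2 of the 10 genes were past 2-fold in untreated cells, where 5.98% of all genes were. In detail, 1 was at least 2-fold higher in untreated knockout cells, where 2.8% of 20299 genes were, and 1 was lower, where 3.18% were. With R848 none was past 2-fold in either direction, against 4.79% of 18768 genes (2.34% higher and 2.45% lower). The higher one was Itgax and the lower one Itgb3 at its brighter probe. Among genes at or above the 75th percentile, 0.695% were at least 2-fold higher and 2.18% lower in untreated knockout cells. The median of the 10 was 0.11 untreated and 0.16 with R848, against 0.06 and 0.04 over all genes.

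Itgax read 3499 in knockout cells with R848 and 3034 in untreated knockout cells, against 2006 in wild-type cells with R848 and 1160 in untreated wild-type cells. Both knockout arrays lay above both wild-type arrays, as they did at the second probe. At the third, the untreated knockout and the R848 wild-type arrays were level (137.1 and 137.4), with the R848 knockout array highest and the untreated wild-type array lowest. The knockout was higher by 2.77-fold untreated and by 0.88 on the log2 scale with R848. The second probe for the same transcript (NM_021334) gave 760 and 672 in knockout cells and 362 and 217 in wild-type cells, R848 before untreated, or 1.14 with R848 and 1.72 untreated. The third (AK089167), at signals of 94.2 to 241, gave 0.88 and 0.63.

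The R848 difference of Itgax was 0.26 in knockout cells and 0.86 in wild-type cells, so the gap between genotypes was smaller after R848 by 0.60. That difference was not past 2-fold, and its sign differed at the third probe, which gave 0.87 in knockout and 0.61 in wild-type cells. With median centring the wild-type value passed 2-fold, at 1.01. Across the 8 alternative settings and the values given here, the untreated difference between genotypes ran from 1.27 to 1.51 and the difference with R848 from 0.83 to 0.97.

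Itgam and Itgax are neighbours on mouse chromosome 7 (band 7qF3 in the authors' table, as is Itgal), with 1 annotated pseudogene between them. Beside the 2.77-fold difference of Itgax between untreated genotypes, Itgam differed by 0.11 at its brightest probe and -0.06 at the other. Itgal differed by -0.07 at its brightest probe and by 0.41 as the mean over 3 probes. None of these reached 2-fold.

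Because Itgax marks dendritic cells, 10 markers of conventional dendritic cells were set beside it. None was at least 2-fold higher in the knockout, of 7 measured with R848 and 9 measured untreated, and 2 and 1 were at least 2-fold lower. Over all genes 2.34% were higher and 2.45% lower with R848, and 2.8% and 3.18% untreated. Their summed signal was 537 with R848 and 677 untreated in knockout cells, and 1425 with R848 and 1575 untreated in wild-type cells. Of 9 with a probe well above background, 4 were lower in the knockout under both treatments and 1 was higher. Kit, which mast cells and progenitors also carry, made up more than any other marker of that sum in wild-type cells and was lower in the knockout. Ccr7 was also lower, at 77.2 and 27.7 in knockout against 211 and 49.6 in wild-type cells (R848, then untreated). Zbtb46, a defining transcription factor, read 81.1 and 67.8 in knockout and 86.2 and 71.2 in wild-type cells (R848, then untreated), and the lineage receptor Flt3 read 71.6 and 65.1 against 71.8 and 79.2. Of the macrophage markers, 8 of 10 were higher in the knockout under both treatments, with a summed signal of 151700 and 135100 in knockout and 142100 and 119600 in wild-type cells. The part of cell composition in the Itgax difference was not tested.

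**Figure D4:**
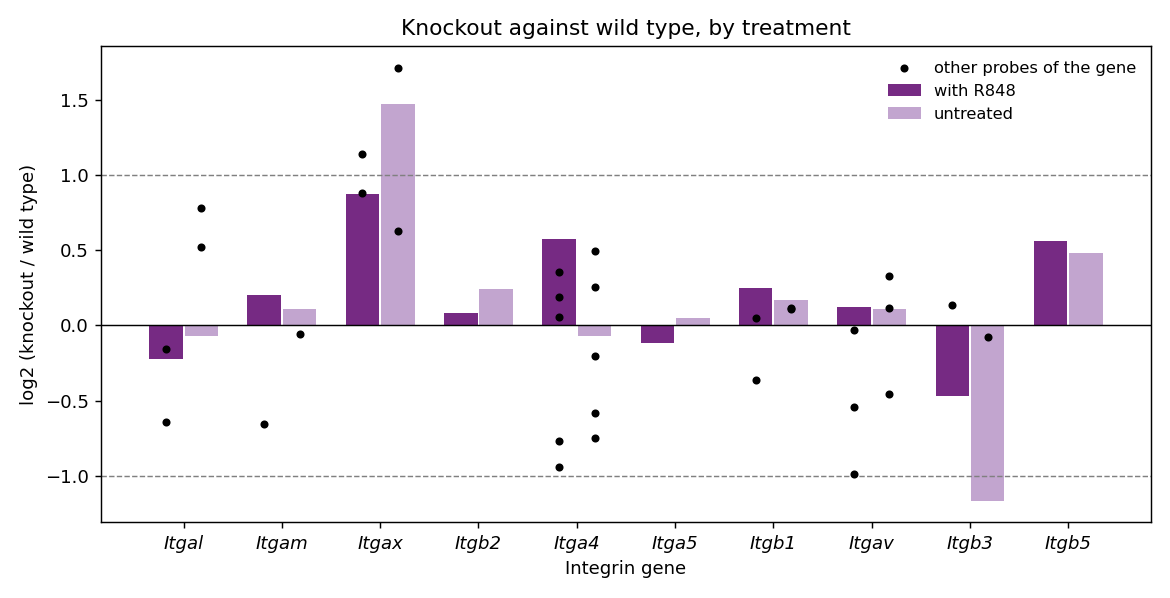
log2 difference of knockout over wild type for each integrin gene with R848 (left bars) and untreated (right bars); bars are the brightest probe, points the gene's other probes and dashed lines 2-fold. Itgax stands at 0.88 and 1.47 and is the only gene whose probes all lie above 0.6, and Itgb3 stands at -0.47 and -1.17.

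**Figure D5:**
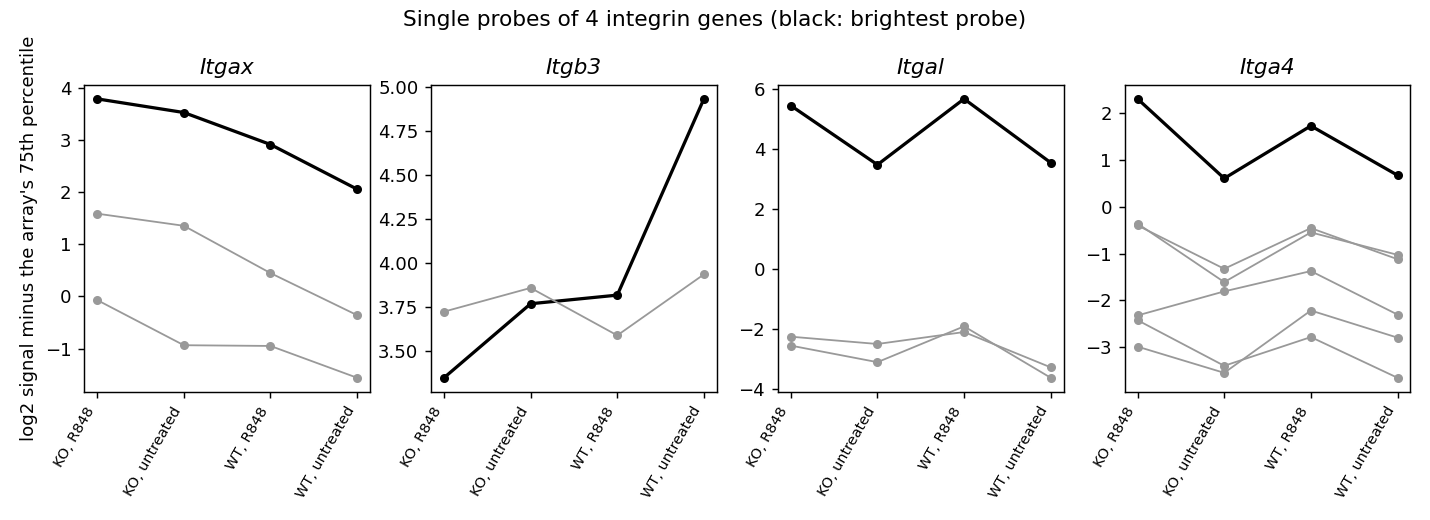
log2 signal of every probe of Itgax, Itgb3, Itgal and Itga4, minus the array's 75th percentile, on the 4 arrays; black is the brightest probe. The 3 Itgax probes are highest in knockout cells with R848 and lowest in untreated wild-type cells, the 2 Itgb3 probes part on the untreated wild-type array, and the dim Itgal and Itga4 probes span a smaller range over the arrays than the brightest.

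Other transcripts followed the 3 members of widest range closely over the 4 arrays. Likeness was the Euclidean distance between log2 values centred on each gene's mean, among 8755 genes that were well above background on every array and whose mean over the 4 arrays was at or above the 75th percentile. For Itga5 the nearest were St3gal1, a sialyltransferase (distance 0.17), and Rasgef1b, a Ras guanine nucleotide exchange factor (0.21). For Itgb5 they were the fatty acid-binding protein gene Fabp4 (0.12) and the linker histone gene H1f2 (0.22), and for Itgal the transcription elongation factor gene Ell2 (0.046) and the stress-response gene Gadd45b (0.065). With 4 arrays of which 2 had R848, a close match needs little more than a like response to R848 in both genotypes.

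Of 18 other genes, all integrin subunits but the beta-like Itgbl1, 11 were measured in the wild-type response and 12 in the knockout response. Itgbl1 had no probe well above background. In each genotype 2 were at least 2-fold higher and none lower. Over all genes 6.84% were higher and 6.57% lower in knockout cells, and 6.19% and 7.01% in wild-type cells. Itgb8, which pairs with Itgav in a receptor that activates latent TGF-beta, was higher in both. It read 205 in knockout cells with R848 and 20.9 untreated, and 118 in wild-type cells with R848 and 11.8 untreated. The untreated wild-type spot did not clear background, so Itgb8 was at least 10.3-fold higher in wild-type cells and 10.2-fold higher in knockout cells, all at signals below the 75th percentile. Itga9, a partner of Itgb1, was 2.36-fold higher with R848 in wild-type cells, and Itga8 at least 3.03-fold higher in knockout cells, where the untreated array was not well above background.

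Against wild type, untreated knockout cells had 3 of 13 of these subunits at least 2-fold lower and none higher, and with R848 1 of 11 was at least 2-fold lower. The share of all genes that were lower was 3.18% untreated and 2.45% with R848. Itga9 was 2.82-fold lower untreated and 3.75-fold lower with R848. Itgb2l, a beta chain close to Itgb2, read 786 and 1260 in knockout cells with R848 and untreated, against 1650 and 2734 in wild-type cells, and was 2.05-fold lower untreated. Itgad, another alpha partner of Itgb2, was well above background on the untreated wild-type array alone, at 35.6, and at least 2.91-fold lower in untreated knockout cells. Granulocyte and precursor markers were also lower in the knockout, with 7 of 11 past 2-fold untreated and 6 of 11 with R848, among them Ctsg, Mpo, Elane and Ms4a3. Their summed signal was 129200 with R848 and 138900 untreated in knockout cells and 178300 and 210000 in wild-type cells. Of 10 basophil and mast cell markers, 6 were past 2-fold lower in the knockout with R848 and 7 untreated, and none was 2-fold higher. The part of those cells in the subunit differences was not tested.

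Among 21 genes of adaptors and regulators that set the activity of integrins from inside the cell, most of them activating and some, such as Sharpin, Itgb1bp1 and Flna, known to hold integrins inactive, 20 were measured in each response. In knockout cells 3 were at least 2-fold higher with R848 and 2 lower (median 0.39), and in wild-type cells 2 were higher and 3 lower (median 0.25). Shares over all genes were 6.84% higher and 6.57% lower in knockout and 6.19% and 7.01% in wild-type cells. Apbb1ip (RIAM), the adaptor that brings talin to Rap1, was 2.28-fold higher in knockout and 2.18-fold higher in wild-type cells. The Rap exchange factor gene Rapgef2 was 3.12-fold and 4.14-fold higher, and Rapgef1 2.90-fold higher in the knockout. Rapgef3 (Epac1) was 2.73-fold and 3.32-fold lower, and Cyth1, which binds the Itgb2 tail, 3.43-fold and 2.58-fold lower. In wild-type cells Rasgrp2 fell 2.08-fold. Talin 1 (Tln1) stood at 0.49 in both genotypes and kindlin-3 (Fermt3) at 0.63 in knockout and 0.16 in wild-type cells.

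Of 26 genes of signalling behind bound integrins and of focal adhesions, 6 were at least 2-fold higher with R848 and none lower in each genotype, with a median of 0.16 in each. Among all genes, 6.84% were higher in knockout and 6.19% in wild-type cells, and 6.57% and 7.01% were lower. The Src family kinase genes Lyn and Src rose, Lyn by 1.73 and 1.85 and Src by 1.74 and 1.66 on the log2 scale in knockout and wild type. Syk, the kinase they act through, was 2.89-fold higher in knockout and 2.82-fold higher in wild-type cells. Between genotypes Parvg, which encodes the leukocyte parvin of focal adhesions, was 2.73-fold lower in untreated knockout cells and 2.11-fold lower with R848. In the activation list Rasgrp2, the Rap exchange factor of platelets and neutrophils, was 2.31-fold lower in untreated knockout cells. No other gene of these lists passed 2-fold between genotypes. Over all genes 3.18% were at least 2-fold lower in the knockout untreated and 2.45% with R848.

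Ligands showed both patterns. Of 10 measured cell-surface ligands, 2 were at least 2-fold higher with R848 in knockout cells, and in wild-type cells 2 were higher and 1 lower. Over all genes 6.84% were higher in knockout cells, and in wild-type cells 6.19% were higher and 7.01% lower. Icam1, the ligand of LFA-1 and Mac-1, read 770 with R848 and 83.8 untreated in knockout cells, and 691 with R848 and 92.4 untreated in wild-type cells. It was 9.55-fold higher in the knockout and 7.84-fold higher in the wild type. Icam4 was 2.30-fold and 3.63-fold higher, and in the wild type Icam2 fell 2.19-fold.

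Between genotypes 2 of the 10 were at least 2-fold lower in the knockout at both treatments and none was 2-fold higher at either. The share of all genes that were lower was 2.45% with R848 and 3.18% untreated. Vcam1, the ligand of VLA-4, read 512 with R848 and 438 untreated in knockout cells, against 1760 with R848 and 2428 untreated in wild-type cells. Both knockout arrays were the low ones, by 3.27-fold with R848 and 5.23-fold untreated. F11r (JAM-A), a ligand of LFA-1, was 2.43-fold lower with R848 and 3.50-fold lower untreated.

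Matrix and soluble ligands numbered 21, of which 17 or 18 were measured in each comparison. Past the 2-fold threshold, 2 rose and 2 fell with R848 in knockout cells, and 1 rose and 1 fell in wild-type cells. Among all genes 6.84% rose and 6.57% fell in knockout cells, and 6.19% and 7.01% in wild-type cells. C3, the source of the Mac-1 ligand iC3b, was 4.77-fold higher with R848 in knockout and 2.02-fold higher in wild-type cells, and its untreated signal was 4.38-fold lower in the knockout. The 2 responses of C3 differed by 1.24 on the log2 scale. Spp1 (osteopontin), a ligand of Itgav and Itga4 integrins, read 13620 with R848 and 25790 untreated in knockout cells, against 7174 and 13160 in wild-type cells, and was 2.08-fold higher in the untreated knockout. Fibronectin (Fn1), the ligand of Itga5 and Itga4, did not reach 2-fold: its R848 differences were -0.21 and -0.46 in knockout and wild type, and the knockout stood 0.83 above the wild type with R848 and 0.58 above it untreated. Adam8 was 2.43-fold lower with R848 in knockout cells and Ccn1 2.02-fold lower in wild-type cells. Edil3 was at least 2.54-fold higher with R848 in knockout cells, at a signal of 28.1, and was well above background on that array alone. Nid1 lay at the threshold itself, lower with R848 in knockout cells and higher in untreated knockout than untreated wild-type cells.

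The difference between the responses, the knockout's minus the wild type's, was past 2-fold for none of the 10 genes, where 7.8% of 20626 genes were (3.62% higher and 4.18% lower). Its median over the 10 was 0.05, against -0.03 over all genes, and it ran from -0.60 for Itgax to 0.70 for Itgb3 at its brighter probe. For Itgal, Itga5 and Itgb5, the 3 genes with the largest responses, it was -0.16, -0.16 and 0.08 at the brightest probe. The spread between spots was 0.077 at signals over 1000 and 0.14 at 100 to 1000. For Itgal the mean over probes was -0.75. By probe, 3 of 26 were past 2-fold, all lower in the knockout's response and all at signals of at most 129. They belong to Itgal, Itga4 and Itgav, whose brightest probes stood at -0.16, 0.64 and 0.02. For Itgal all 3 probes were below 0.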

How the data were processed

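Total RNA was labelled with Cy3 and measured on 4 arrays of 1 slide, read in 1 scan. Per the file headers, the extraction software was Agilent Feature Extraction 11.5.1.1, and the processed signal is an intensity from which background and a spatial trend had been removed, with no scaling between arrays; the probe grid is annotated to mm9. The authors also deposited a table of intensity for 39374 spots, which equalled the processed signal times 1 factor per array (3.72 to 4.13) within 1% for 100.0% of spots; no header or label states what these factors refer to, and the column medians were 685, 720, 675 and 705 (knockout with R848 and untreated, wild type with R848 and untreated).

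Here each array was scaled, on the log2 scale, to the 75th percentile of its 56605 non-control probes. The percentile was 252 and 262 in knockout and 265 and 278 in wild-type cells (R848, untreated), and 64.9%, 71.4%, 60.6% and 69.6% of probes were well above background in that order. Outlier spots (70 to 115 per array) were left out. A probe entered a comparison when well above background on at least 1 array compared. Where a dimmer array was not well above background, a signal under that array's lowest signal well above background was raised to it. A higher signal was kept, and either result was given as "at least". Each gene was represented by its brightest probe. Names came from the authors' table and the gene table of GRCm38.p6, which left 16149 of the 56605 probes unnamed. The fold calculations were tested on simulated data.

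Alternatives were median centring, quantile normalization, normexp (offset 50, limma 3.58.1 in R 4.3.3, on the spot median because the files hold no spot mean), the authors' table, the mean over probes, 2 other filters on dim probes, and leaving out bright areas (windows of 9 by 9 spots deviating by at least 0.5 on the log2 scale). Genes of the other lists were named when past 2-fold, all if 5 or fewer in a comparison and otherwise the 4 largest at or above the 75th percentile; 1 gene that this rule names is not reported here. The members and lists were chosen with earlier results of these data known.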

Additional observations from a re-analysis of the deposited data

Results flagged for a closer look

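At the brightest probe, 3 of the 10 genes moved in opposite directions under the same contrast, each with 1 array per group. Itgam stood at 0.027 (R848 over untreated, log2) in knockout and -0.066 in wild-type cells. Itga4 stood at 0.575 (knockout over wild type) with R848 and -0.067 untreated, and Itga5 at -0.114 with R848 and 0.048 untreated. The Itga4 pair rests on 1 of 6 probes: with the mean over probes it was -0.09 with R848 and -0.14 untreated, in 1 direction. These differences were not tested, and all but the 0.575 are close to the spread between spots of 1 probe.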

How the results depend on the processing

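Of 400 values of the members under 8 alternative settings, 326 moved by no more than the spread between spots, 74 moved by more and none of those past 2-fold changed sign. Over these values, 393 stayed on their side of 2-fold. Several values under 2-fold did change sign with the setting. Itgam in the knockout response kept its sign in 6 of 9 settings, the main one included. Itga4 between genotypes with R848 ran from -0.09 to 0.60. With the mean over probes, the number of members at least 2-fold higher with R848 in knockout cells was 1, in place of 3, the number lower in wild-type cells was 1, in place of 2, and the number lower in untreated knockout than untreated wild-type cells was 0, in place of 1. Median centring also gave 1 lower in wild-type cells with R848. The number of members higher with R848 in wild-type cells was 4 with median centring and 2 with the mean over probes, in place of 3. The dim probes of Itgal and Itga4 and the second probe of Itgb3 enter that mean by construction. Over all genes, normexp, which adds 50 to every signal, gave 810 higher and 547 lower in the knockout response, in place of 1357 and 1304, and 702 and 575 in the wild-type response, in place of 1162 and 1316. It gave 104 and 148 between genotypes with R848, in place of 440 and 459, 111 and 219 untreated, in place of 568 and 646, and 186 and 159 for the difference between responses, in place of 747 and 862. With no filter there were 2278 lower in the knockout and 2261 in the wild-type response, 1377 higher and 839 lower between genotypes with R848, 1480 and 1179 untreated, and 1729 and 1760 for the difference. When a probe had to clear background on each array compared, 259 genes were higher with R848 and 323 untreated between genotypes, and 409 higher and 352 lower for the difference, for which the authors' table gave 457 lower. Of called genes, 60.2% were higher between genotypes with R848 in the authors' table, in place of 48.9%. No paired analysis was possible because each group has 1 array. Signal limits those dim probes of Itgal, Itga4, Itgav, Itgb1 and Itgax that were under 100 on at least 1 array. The spread between spots is several times larger below a signal of 100. A dim Itga4 probe (lowest signal 105) and a dim Itgav probe (lowest signal 103) stayed above 100 on every array.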
